A study of Mus musculus with 15 samples.

Results

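The genes described here are 10 transcripts of the intestinal crypt: Lgr5, Olfm4, Ascl2 and Smoc2, which mark the stem cells at the crypt base, and Axin2, Sox9, Rnf43, Znrf3, Slc12a2 and Cd44, which are known crypt-enriched genes, most of them targets of Wnt signalling. They were taken by name, after Ensembl identifiers had been paired with mouse symbols, and all 10 were found among the 37620 identifiers of both count tables. Their levels were read in RNA from the ileum of adult mice, in 15 libraries. The series compared mice with an inducible deletion of Rfx6, a transcription factor of hormone-producing gut cells, with controls. Animals labelled mutant were Rfx6f/f; Vilin-CreERT2, that is, Rfx6 was floxed on each chromosome, and the Villin promoter, which is active throughout the gut epithelium, stem cells included, drove a Cre recombinase that works once tamoxifen is given. Controls had no recombinase. Tamoxifen (10 mg) was given by gavage, 2 times daily on alternate days over 5 days, and ileum was taken 8 days or 3 months later. At 8 days there were 3 controls, all Rfx6f/f, and 4 mutants. At 3 months there were 4 controls, of which replicates 1 and 4 were Rfx6f/f and replicates 2 and 3 were Rfx6f/+, and 4 mutants. The protocol does not set controls apart in the tamoxifen treatment, and loss of Rfx6 and an active recombinase cannot be told apart, since only the mutants had either.

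Crypt base stem cells divide continuously and renew the epithelium. Their upkeep needs Wnt ligands, which bind Frizzled and LRP receptors and stabilise beta-catenin, which in turn activates target genes together with TCF factors. R-spondins, bound by Lgr5 and its relatives, strengthen the signal by removing the ubiquitin ligases Rnf43 and Znrf3, which otherwise clear Frizzled from the membrane, while Axin2 restrains the pathway inside the cell. Notch signals from neighbouring Paneth cells keep stem cells undifferentiated, and BMP signals, strongest towards the villus, oppose Wnt.

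Library totals ranged from 26078462 to 54468586 counts, so that every member was far above the counting floor: the fewest counts of any member in any library were 90, for Ascl2. Levels are given as counts per 1000000 (CPM), scaled over all 15 libraries. Rfx6 itself stood at 1.37 to 1.65 CPM in controls and 1.47 to 2.097 CPM in mutants at 8 days, and at 1.46 to 1.74 and 2.26 to 3.33 CPM at 3 months. Rfx6 was thus not lower in the mutants, and at 3 months it was higher (log2 fold change 0.72, adjusted p 0.0347, edgeR). These totals over the whole gene do not check the labels, because reads over the deleted part were not analysed here. Groups are therefore named throughout as labelled: "mutant" means a library labelled mutant. The epithelial markers Epcam, Cdh1, Krt8, Krt18, Krt19, Vil1 and Cldn7 had counts in every library, with summed levels of 9715 to 14087 CPM. In RNA from whole tissue, fewer cells of a type and less RNA per cell cannot be told apart. Each library has its own title, but the labels do not say that each is a separate animal, so p-values measure only the spread between these libraries, which may be technical. Extraction batches, for which the protocol allows either of a pair of methods, are not given.

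Among the members, Olfm4 was the most abundant per length in each of the 4 groups. In 8-day controls it stood at 133 ± 23.8 CPM per 1000 bases of exon (SD, n = 3), followed by Slc12a2 at 35.7 ± 3.501 and Axin2 at 26.5 ± 3.86. These 3 kept this order, with no overlap between neighbours, in each of the 4 groups. Cd44, Rnf43 and Smoc2 came next at 8.99 to 9.74 CPM per 1000 bases, each overlapping with its neighbour in this trio. Sox9 followed at 6.34. Ascl2, Znrf3 and Lgr5 were lowest at 3.42, 3.27 and 2.94, with overlapping libraries. In 3-month controls Sox9 held the same place in the order, but it (3.05 ± 0.334 CPM per 1000 bases, n = 4) overlapped with Ascl2 (2.85 ± 0.727). The plot of CPM by library shows every value described below.

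**Figure D1:**
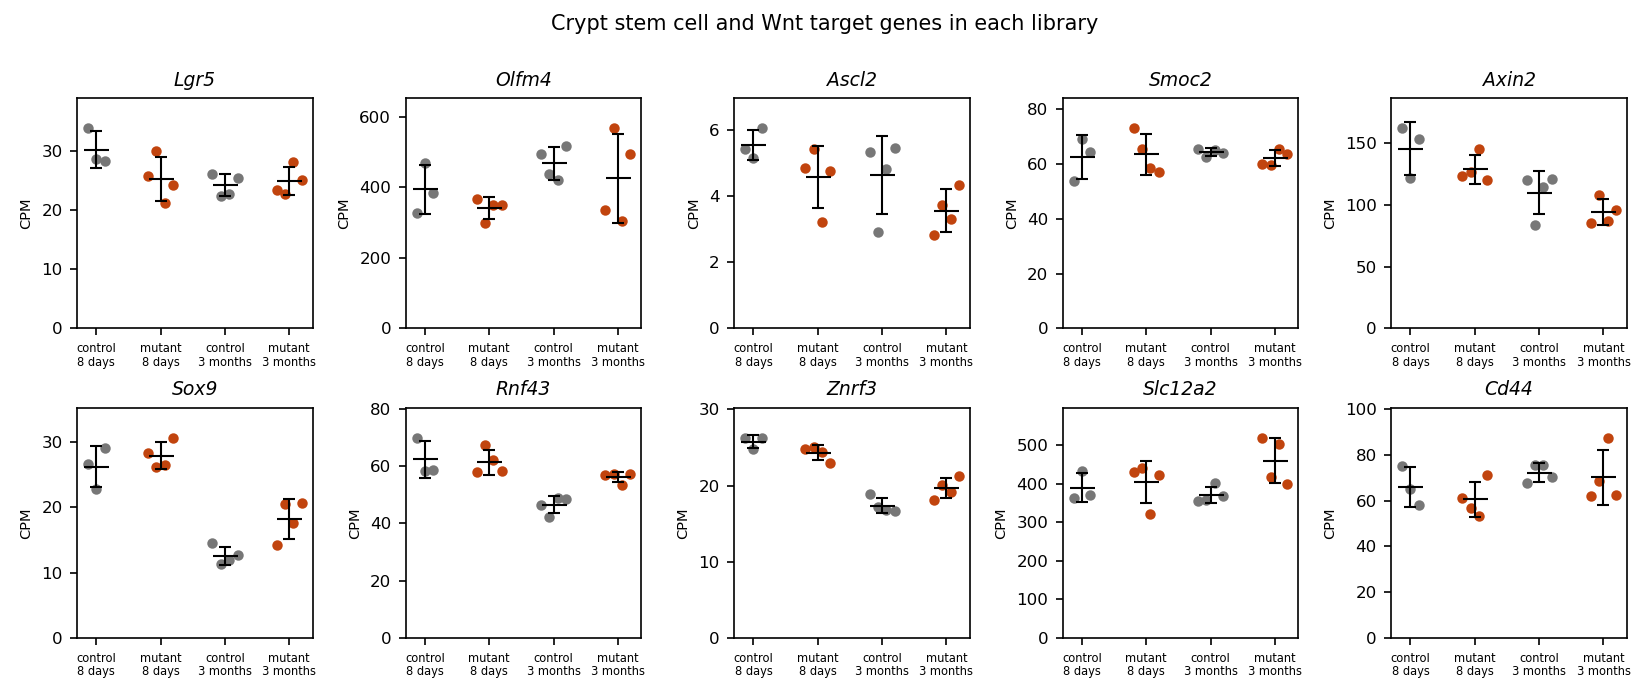
Level of each of the 10 genes in CPM (vertical axis, linear, from 0) in each of the 15 libraries, as grey points for controls and orange points for mutants at 8 days and 3 months, with bars for the mean and SD of each group (n = 3, 4, 4 and 4). Rnf43 is the one gene whose 3-month mutants all lie above all 3-month controls, and Sox9 is lower in every 3-month library than in any 8-day library.

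The comparison asked whether these genes differed between mutants and controls at each time, and whether any difference changed between the times. A gene passed where edgeR's quasi-likelihood test gave an adjusted p under 0.05. At 8 days none of the 10 members passed, against 16 of 17493 genes tested, or 0.0915%. None of the 10 had an unadjusted p under 0.05 (8.8% of all genes did), DESeq2 called none, and no member had groups that did not overlap (7.68% of all genes did). At 3 months 2 members, Sox9 and Rnf43, passed, both higher in mutants, against 1586 of 17085 genes or 9.28% (4.96% higher). Unadjusted, 4 of the 10 were under 0.05, beside 29.4% of all genes. The median log2 fold change of the members was -0.11 at 8 days and 0.015 at 3 months, beside medians of -0.0020 and 0.0077 over all genes tested.

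Lgr5, the R-spondin receptor that defines crypt base stem cells, was at 33.8, 28.6 and 28.2 CPM in the 8-day controls and at 25.7, 30.001, 21.1 and 24.2 CPM in the mutants. Only mutant replicate 2 reached into the range of the controls. The difference did not pass the test (log2 fold change -0.26, SE 0.12, 95% interval -0.54 to 0.019, adjusted p 0.612, edgeR). At 3 months the values were 26.04, 22.4, 22.7 and 25.4 CPM in controls and 23.4, 22.7, 28.02 and 25.1 CPM in mutants. The ranges overlapped (log2 fold change 0.056, SE 0.088, 95% interval -0.14 to 0.26, adjusted p 0.705).

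Olfm4, a secreted glycoprotein of the same cells whose expression depends on Notch, was at 329, 469 and 385 CPM in 8-day controls and 368, 298, 350.0 and 350.0 CPM in mutants. The groups overlapped (log2 fold change -0.21, SE 0.13, 95% interval -0.50 to 0.076, adjusted p 0.722). The value was -0.33 without control replicate 1 and -0.061 without control replicate 2. At 3 months controls stood at 494, 437, 422 and 518 CPM and mutants at 336, 568, 305 and 494 CPM. Mutant replicates 1 and 3 lay below every control, while replicate 4 lay among the controls and replicate 2 above them. The coefficient of variation of Olfm4 in 3-month mutants was 29.5%, the highest of any member in any group, beside 9.75% in the controls of that time and a median of 10.8% over all genes of at least 1 CPM in the mutants. The mean difference was within this spread (log2 fold change -0.12, SE 0.19, 95% interval -0.56 to 0.32, adjusted p 0.709).

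Ascl2, the basic helix-loop-helix factor that maintains stem cell identity, had the fewest counts of the members and stood at 5.42, 5.16 and 6.05 CPM in 8-day controls and 4.85, 5.43, 3.22 and 4.76 CPM in mutants. At 3 months it was at 5.32, 2.898, 4.83 and 5.44 CPM in controls and 2.83, 3.74, 3.32 and 4.34 CPM in mutants. The mean was lower in mutants at both times without passing the test (log2 fold change -0.28, SE 0.18, 95% interval -0.70 to 0.14, adjusted p 0.757 at 8 days and log2 fold change -0.36, SE 0.22, 95% interval -0.86 to 0.14, adjusted p 0.304 at 3 months). At 3 months the lowest control, replicate 2, was Rfx6f/+ and stood among the mutants, and the other 3 controls, 1 Rfx6f/+ and both Rfx6f/f, were above every mutant. With Rfx6f/f controls only, the log2 fold change was -0.59 (adjusted p 0.222).

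Smoc2, a secreted calcium-binding matrix protein of stem cells that stromal cells also make, varied least among the stem cell markers at 3 months, with coefficients of variation of 2.04% in controls and 4.48% in mutants. It stood at 53.7, 69.2 and 64.5 CPM in 8-day controls and 72.99, 65.3, 58.6 and 56.9 CPM in mutants, and at 65.6, 62.6, 65.02 and 64.1 CPM and 59.96, 59.7, 65.4 and 63.6 CPM at 3 months. The groups overlapped at both times. Its log2 fold change was 0.019 (SE 0.12) at 8 days and -0.034 (SE 0.051) at 3 months, where the 95% interval of -0.15 to 0.080 was the narrowest of any member (adjusted p 0.988 and 0.685).

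Of the genes through which Wnt signalling limits itself, Axin2, a scaffold of the beta-catenin destruction complex and the usual readout of the pathway, did not differ beyond its spread. At 8 days it was at 162, 122 and 153 CPM in controls and 123, 126, 146 and 120.3 CPM in mutants (log2 fold change -0.18, SE 0.11, 95% interval -0.43 to 0.068, adjusted p 0.726). At 3 months it was at 120.2, 84.1, 115 and 121 CPM in controls and 85.3, 109, 87.004 and 95.9 CPM in mutants (log2 fold change -0.21, SE 0.13, 95% interval -0.50 to 0.084, adjusted p 0.312). Control replicate 2, an Rfx6f/+ library, had the lowest Axin2 of all libraries. The remaining 3 controls lay above every mutant. Without that library the log2 fold change was -0.32 (adjusted p 0.0959), and with Rfx6f/f controls only it was -0.35 (adjusted p 0.214). In the annotation used, 209 exon bases of Axin2 are shared with Gm11670 on the opposite strand, which had at most 7 counts in any library.

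Rnf43, the membrane ubiquitin ligase that removes Frizzled receptors, rose in 3-month mutants. It stood at 46.6, 42.4, 48.8 and 48.4 CPM in controls and 56.9, 57.2, 53.5 and 57.4 CPM in mutants, so that every mutant was above every control, as for 8.76% of all genes tested (19.4% in either direction). The means were 46.6 ± 2.92 CPM (SD, n = 4) and 56.2 ± 1.83 CPM (SD, n = 4). The edgeR fit of this cohort, scaled separately, gave a 1.22-fold difference (log2 fold change 0.29, SE 0.061, 95% interval 0.15 to 0.43, adjusted p 0.0270). At 8 days the values were 69.9, 58.4 and 58.8 CPM in controls and 57.97, 67.3, 62.2 and 58.2 CPM in mutants, with overlapping groups (log2 fold change -0.024, SE 0.087, 95% interval -0.22 to 0.17, adjusted p 0.981). The 3-month call was lost without control replicate 1, 2 or 3 or without mutant replicate 1 (adjusted p 0.0539 to 0.0713) and kept in the other 4 fits that left out 1 library. With Rfx6f/f controls only, the log2 fold change was 0.25 (adjusted p 0.173).

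Znrf3, the close relative of Rnf43 with the same role, was measured at 18.9, 17.1, 16.8 and 16.6 CPM in 3-month controls and 18.2, 20.04, 19.2 and 21.2 CPM in mutants. Only control replicate 1 reached into the range of the mutants. The difference did not pass after adjustment (log2 fold change 0.19, SE 0.076, 95% interval 0.020 to 0.36, adjusted p 0.133, unadjusted p 0.0321, edgeR). At 8 days controls were at 26.2, 24.9 and 26.3 CPM and mutants at 24.9, 25.1, 24.4 and 23.01 CPM (log2 fold change -0.086, SE 0.066, 95% interval -0.24 to 0.063, adjusted p 0.812).

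Sox9, an HMG-box transcription factor of stem and Paneth cells that endocrine, tuft and glial cells also express, had the largest log2 fold change of the members at 3 months. It stood at 14.5, 11.3, 11.99 and 12.6 CPM in controls and 14.2, 20.6, 17.6 and 20.7 CPM in mutants. Mutant replicate 1 lay just below control replicate 1, and the remaining 3 mutants were above all controls. The means were 12.6 ± 1.38 CPM (SD, n = 4) and 18.3 ± 3.07 CPM (SD, n = 4). The edgeR fit of this cohort, scaled separately, gave a 1.46-fold rise (log2 fold change 0.55, SE 0.14, 95% interval 0.24 to 0.86, adjusted p 0.0411). At 8 days it was at 26.6, 22.9 and 29.2 CPM in controls and 28.4, 26.2, 26.5 and 30.7 CPM in mutants (log2 fold change 0.086, SE 0.10, 95% interval -0.13 to 0.30, adjusted p 0.897). The 3-month call was the less firm of the pair: it held without mutant replicate 1 (adjusted p 0.0236) and was lost when any of the other 7 libraries was left out (adjusted p 0.0633 to 0.108). With Rfx6f/f controls only, the log2 fold change was 0.43 (adjusted p 0.276).

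Slc12a2 encodes the sodium, potassium and chloride cotransporter that loads crypt cells with chloride for fluid secretion. At 3 months it was at 355, 359, 402 and 369 CPM in controls and 519, 419, 502 and 400.3 CPM in mutants. Mutant replicates 1 and 3 were the high ones, and replicate 4 was level with the highest control. The difference did not pass the main test (log2 fold change 0.33, SE 0.10, 95% interval 0.11 to 0.54, adjusted p 0.0636, edgeR). DESeq2 gave the same fold change with an adjusted p of 0.0168, and edgeR without mutant replicate 4 gave 0.39 (adjusted p 0.0429). At 8 days the values were 364, 434 and 372 CPM in controls and 431, 440.2, 322 and 422 CPM in mutants (log2 fold change 0.048, SE 0.12, 95% interval -0.23 to 0.33, adjusted p 0.970). In the 3-month mutants, the 2 libraries with the highest Slc12a2 had the lowest Olfm4.

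Cd44, a hyaluronan receptor of crypt cells that immune and stromal cells also carry, overlapped between groups at both times. It was at 75.1, 64.98 and 57.9 CPM in 8-day controls and 60.98, 56.97, 53.4 and 71.1 CPM in mutants, and at 67.5, 75.5, 75.6 and 70.4 CPM and 62.03, 68.6, 87.4 and 62.5 CPM at 3 months. The log2 fold changes were -0.13 (SE 0.12, adjusted p 0.866) and -0.026 (SE 0.11, adjusted p 0.896). The plot of fold changes sets the 10 members side by side.

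**Figure D2:**
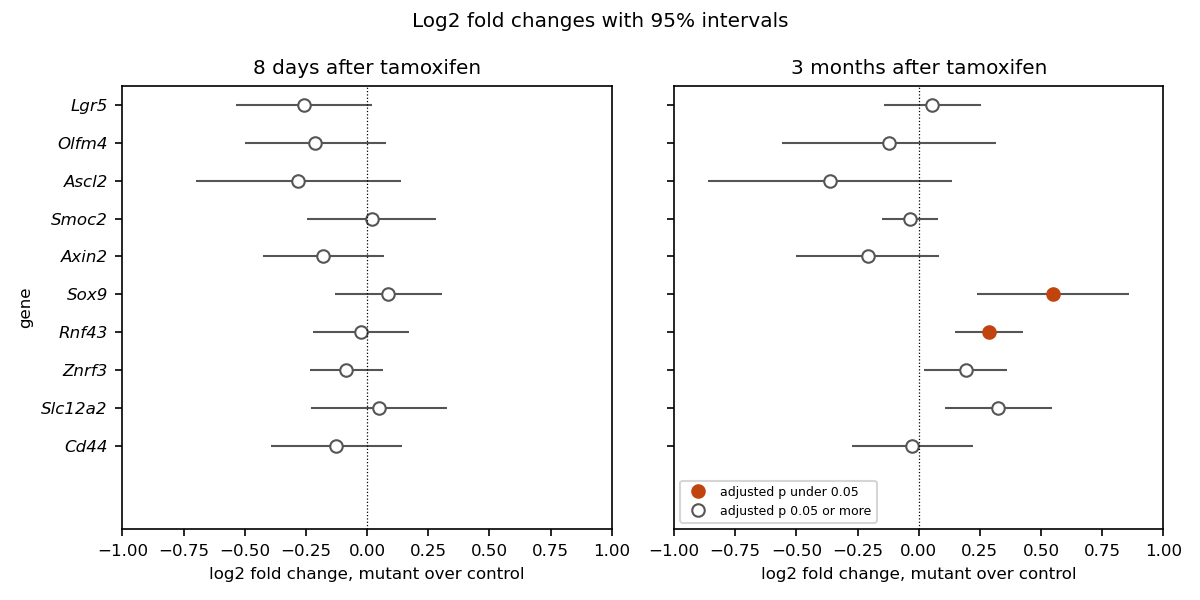
Log2 fold change of mutant over control (horizontal axis) for each of the 10 genes at 8 days (left) and 3 months (right), with lines for the 95% interval derived from the edgeR test. Filled orange points mark an adjusted p under 0.05, which only Sox9 and Rnf43 at 3 months have.

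Whether the effect of the mutant label differed between the times was tested directly in 1 fit of all 15 libraries. No member passed (edgeR quasi-likelihood interaction test), beside 141 of 17959 genes or 0.785%, and DESeq2 called none. Unadjusted, 3 members were under 0.05, as were 16.6% of all genes. These were Rnf43 (difference 0.29, SE 0.10, adjusted p 0.162), Znrf3 (0.26, SE 0.10, adjusted p 0.181) and Sox9 (0.44, SE 0.18, adjusted p 0.213), each with a more positive effect at 3 months. The 3-month rises of Rnf43 and Sox9 are thus not shown to differ from their 8-day values.

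The baseline of several members differed between the cohorts. In 3-month controls, 5 members were lower than in 8-day controls and none was higher, beside 45.1% of all genes changed, 22.1% lower and 23.0% higher (edgeR, same fit). Sox9 changed most, by -1.06 on the log2 scale (SE 0.13, adjusted p 3.2e-05). Its level averaged 26.2 ± 3.14 CPM (SD, n = 3) at 8 days and 12.6 ± 1.38 CPM (SD, n = 4) at 3 months. Znrf3 changed by -0.57 (SE 0.070), Rnf43 by -0.42 (SE 0.076), Axin2 by -0.41 (SE 0.13) and Lgr5 by -0.32 (SE 0.11), with adjusted p from 3.3e-05 to 0.0321. Olfm4, Ascl2, Smoc2, Slc12a2 and Cd44 did not pass. With Rfx6f/f controls only, Sox9, Rnf43 and Znrf3 passed, and Axin2 (-0.29) and Lgr5 (-0.24) did not. Axin2 was also lost without 8-day control replicate 1 or 3, and Lgr5 without 8-day control replicate 1, 3-month control replicate 2 or 3, or mutant replicate 4 of either time. Sox9, Rnf43 and Znrf3 passed whichever library was left out. Mutants at 3 months averaged 18.3 ± 3.07 CPM (SD, n = 4) for Sox9 and 56.2 ± 1.83 CPM (SD, n = 4) for Rnf43, between the means of the 3-month and the 8-day controls. Their means for Lgr5 (24.8 CPM) and Znrf3 (19.6 CPM) also lay between those of the controls. For Axin2 the mutant mean (94.2 CPM) was below both the 3-month (110 CPM) and the 8-day controls (146 CPM). Markers of other cells also differed between the control cohorts, as did 45.1% of all genes, and the sums of 9 of the 12 lists did not overlap. At 8 days and 3 months, the sums were 405 to 769 and 2085 to 2954 CPM for B and plasma cells (4 of 5 genes called, all higher at 3 months), 25.7 to 37.8 and 64.4 to 78.5 for T cells (4 of 5, all higher) and 708 to 899 and 989 to 1189.9 for cycling cells (6 of 8, all higher). They were 68.03 to 89.2 and 15.6 to 38.7 CPM for tuft cells (4 of 4, all lower), 24990.5 to 29814 and 12891 to 15495 for goblet cells (2 of 6, both lower) and 12876 to 13289 and 7207 to 10111 for villus enterocytes (3 of 6, all lower). Of the 6 goblet genes, 4 had a negative and 2 a positive log2 fold change, with a median of -0.12. Fibroblast sums were 1809 to 2214 and 1042 to 1175 CPM, and all 6 genes passed, 4 lower (Col1a1, Col1a2, Col3a1 and Pdgfra) and 2 higher (Dcn and Lum). Epithelial sums were 12893 to 14087 and 10858 to 12776 CPM (3 of 7, all lower) and smooth muscle sums 1849 to 2896 and 1529 to 1839 CPM (1 of 6, lower). Their part in the lower levels was not tested. Time after tamoxifen, age and cohort cannot be told apart in this comparison.

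Around the members, 102 further genes of the Wnt, Notch and BMP pathways and of the stem cell signature were followed in 8 lists. At 8 days none of the 100 tested passed (edgeR; 0.0915% of all genes did), 10 had an unadjusted p under 0.05 (8.8% of all genes), a share near that of all genes, and DESeq2 called none. At 3 months 12 of 100 passed, 8 higher and 4 lower, against 9.28% of all genes, 31 were under 0.05 unadjusted (29.4% of all genes), and DESeq2 called 22 (beside 16.3% of the 17999 genes to which it gave an adjusted p). With Rfx6f/f controls only, none of the 12 passed (36 of all genes did), and Wnt4, Fzd3 and Id3 were the 3 that passed in each of the 8 fits that left out 1 library. The other 9 were each lost without control replicate 1 and without control replicate 3, and passed in 5 (Gsk3b, Jag2), 4 (Wnt2b), 3 (Fzd1, Id1), 2 (Bmpr2, Ccnd1, Nkd2) or 1 (Bmp7) of the 8.

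Among the 11 ligands tested, Wnt4 and Wnt2b rose at 3 months and none was called lower. Log2 fold changes were positive for 7 and negative for 4 of the 11, with a median of 0.35, beside 0.0077 over all genes tested. Wnt4, a Wnt ligand, averaged 4.26 ± 0.883 in controls and 9.87 ± 0.901 CPM in mutants (SD, n = 4 each; log2 fold change 1.23, SE 0.16, adjusted p 0.00626). Its effect differed between the times by edgeR (1.27, SE 0.21, adjusted p 0.0254, interaction test). Its 8-day log2 fold change was -0.059 (SE 0.15). The interaction call was lost in 5 of the 15 fits that left out 1 library and with Rfx6f/f controls only. Over the lists, edgeR's interaction test called 1 of 101 genes (0.785% of all genes), and 24 were under 0.05 unadjusted (16.6%). DESeq2 called 6, namely Wnt4, Wnt2b, Lef1, Clu, Bmp7 and Id1, beside 5.78% of all genes. Wnt2b, a stromal ligand that can support crypt growth, averaged 10.7 ± 0.946 in controls and 15.8 ± 2.59 CPM in mutants (log2 fold change 0.58, SE 0.12, adjusted p 0.0272). Wnt3, the ligand of Paneth cells, had a log2 fold change of -0.0012 (SE 0.15). Wnt9b was too low to test.

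Of the 13 receptors, Fzd1 rose and Fzd3 fell, both being Frizzled receptors. Fzd3 averaged 5.97 ± 0.242 in controls and 3.23 ± 0.595 CPM in mutants (log2 fold change -0.87, SE 0.15, adjusted p 0.0140) and Fzd1 18.3 ± 1.9995 in controls and 26.6 ± 4.34 CPM in mutants (0.55, SE 0.13, adjusted p 0.0339). Lgr4, the R-spondin receptor related to Lgr5, had a log2 fold change of -0.13 (adjusted p 0.326). Of the 16 genes of the beta-catenin complex and its nuclear partners, Gsk3b, a kinase that marks beta-catenin for destruction, was the 1 that passed, at 101 ± 1.399 in controls and 132 ± 15.6 CPM in mutants (log2 fold change 0.39, SE 0.078, adjusted p 0.0226). Ctnnb1, which encodes beta-catenin, was at 0.018 (SE 0.077, adjusted p 0.899). Among 11 inhibitors tested, Nkd2, which acts on Dishevelled, was the 1 that passed (0.47, SE 0.12, adjusted p 0.0494), and it was lost with RLE scaling, with TMM scaling that left out the 20 most counted genes and with no filter (adjusted p 0.0509 to 0.0565). The inhibitors had positive log2 fold changes in 10 of 11 cases at 3 months (median 0.29; 3 unadjusted, 2 by DESeq2). In the interaction 10 of 11 were also positive (median 0.36, beside -0.010 over all genes), with 2 unadjusted and 0 called by edgeR or DESeq2. At 8 days 7 of the 10 tested were negative (median -0.073). At 3 months the receptors were positive in 9 of 13 cases (median 0.11) and the beta-catenin complex genes in 8 of 16 (median 0.0084).

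None of the 11 other crypt Wnt targets tested passed as higher at 3 months, beside 4.96% of all genes. Among them, the cyclin gene Ccnd1 fell, with 215 ± 21.3 in controls and 131 ± 33.6 CPM in mutants (log2 fold change -0.70, SE 0.16, adjusted p 0.0347, edgeR), and 8 of the 11 had a negative log2 fold change, with a median of -0.061. Ccnd1 shares 1100 exon bases with a gene on the opposite strand, and strand handling is not given in the sources used here. Myc (-0.18), Ephb2 (-0.13), Ephb3 (-0.040) and Tnfrsf19 (-0.058) had log2 fold changes below 0 with adjusted p of 0.267 to 0.827. None of the 12 other stem cell signature genes passed by edgeR, 6 were positive and 6 negative (median -0.031), 3 had an unadjusted p under 0.05 and DESeq2 called 1. The smallest p among them was for Msi1, an RNA-binding protein of progenitors (0.43, SE 0.14, adjusted p 0.0781), the 1 called by DESeq2 (adjusted p 0.0411). At 8 days the largest value among these genes was that of Clu, a gene of regenerating epithelium, at 26.5 ± 11.96 CPM in controls and 106 ± 68.3 in mutants (log2 fold change 1.99, SE 0.65, adjusted p 0.460). It passed without mutant replicate 1 (adjusted p 0.0388) and in none of the other 6 fits that left out 1 library. At 8 days all 5 B- and plasma-cell markers were also above 0, with a median log2 fold change of 2.15 and sums of 405 to 769 CPM in controls and 524 to 1067 in mutants. None passed by edgeR, 4 of 5 had an unadjusted p under 0.05 and DESeq2 called 1. Their part in the value of Clu was not tested.

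In the Notch list, the ligand gene Jag2 was the 1 of 10 that passed at 3 months, at 5.24 ± 0.329 in controls and 7.35 ± 0.455 CPM in mutants (log2 fold change 0.50, SE 0.10, adjusted p 0.0198, edgeR). The Notch target Hes1 (-0.16, adjusted p 0.244) and the secretory factor Atoh1 (0.033, adjusted p 0.845) did not. Log2 fold changes were positive for 8 of the 10 (median 0.056). In the BMP list, 11 of 16 were positive (median 0.13) and 4 passed. The target genes Id3 and Id1 fell, Id3 with 80.3 ± 3.98 in controls and 59.9 ± 3.83 CPM in mutants (log2 fold change -0.41, SE 0.062, adjusted p 0.00997) and Id1 with 78.9 ± 9.81 in controls and 54.7 ± 7.31 CPM in mutants (-0.51, SE 0.12, adjusted p 0.0310). The receptor gene Bmpr2 (0.39, adjusted p 0.0353) and the ligand gene Bmp7 (0.46, adjusted p 0.0401) passed as higher, in 2 and 1 of the 8 fits that left out 1 library.

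Beside Clu, the genes with the smallest p of their lists at 8 days, none of which passed by edgeR, were as follows. Lef1, a nuclear partner of beta-catenin that lymphocytes also express, averaged 1.54 ± 0.307 CPM in controls and 4.604 ± 2.77 in mutants (log2 fold change 1.57, SE 0.51, adjusted p 0.460), and it passed in 1 of 7 fits, that without mutant replicate 1 (adjusted p 0.0457). T-cell markers at 8 days summed to 25.7 to 37.8 CPM in controls and 27.9 to 51.03 in mutants (4 of 5 genes above 0, none passed), and their part in the value of Lef1 was not tested. The ligand gene Wnt5b (0.44, SE 0.18, adjusted p 0.533), the inhibitor Nkd2 (0.35, SE 0.12, adjusted p 0.462), the receptor gene Notch2 (0.23, SE 0.11, adjusted p 0.637) and the ligand gene Bmp2 (0.27, SE 0.068, adjusted p 0.443) had log2 fold changes above 0. The receptor genes Fzd4 (-0.31, SE 0.15, adjusted p 0.642) and Ephb2 (-0.25, SE 0.089, adjusted p 0.476) had values below 0. In the interaction, the genes with the smallest p of the other lists, none called by edgeR, were the Wnt co-receptor gene Lrp6 (0.30, SE 0.10, adjusted p 0.135), Lef1 (-1.93, SE 0.63, adjusted p 0.128), the Dkk family gene Dkk3 (0.36, SE 0.14, adjusted p 0.187) and the transcription factor gene Prox1 (0.38, SE 0.16, adjusted p 0.253), followed by Clu (-2.92, SE 0.90, adjusted p 0.109), Jag2 (0.39, SE 0.16, adjusted p 0.222) and Bmp7 (0.56, SE 0.15, adjusted p 0.0735).

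**Figure D3:**
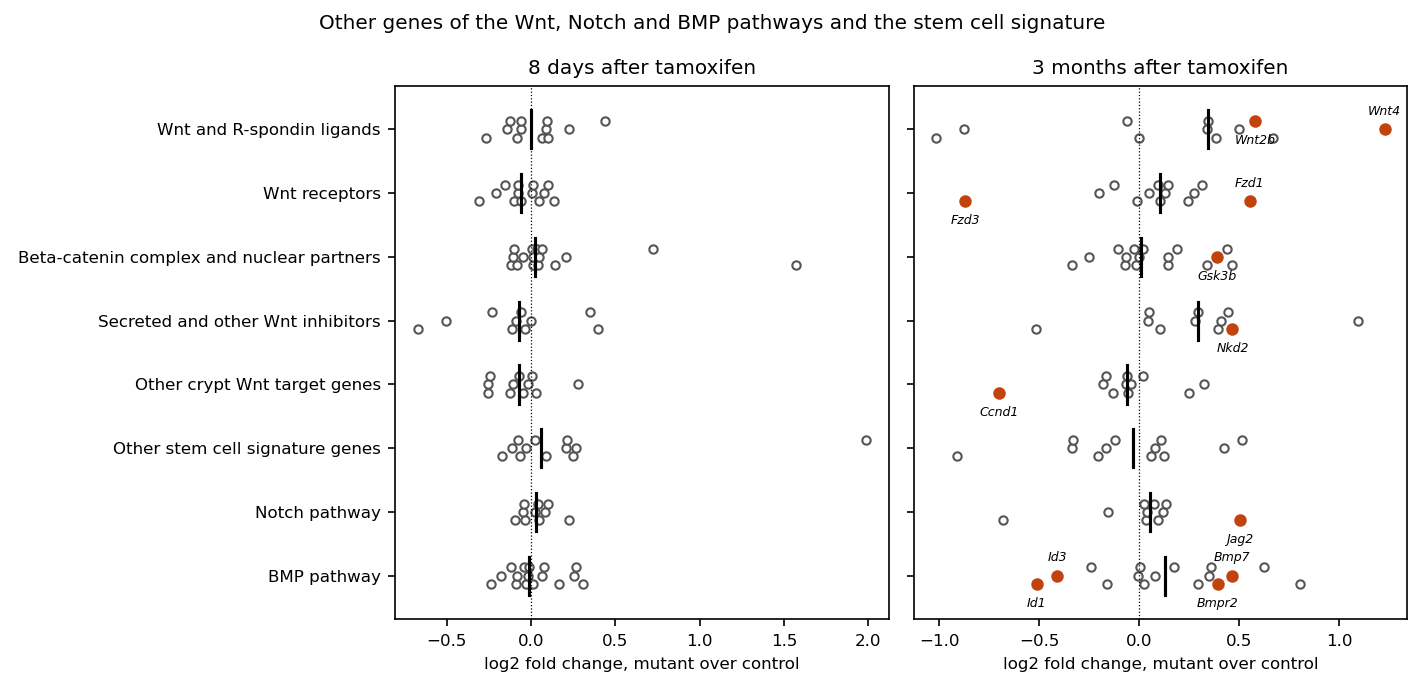
Log2 fold change of mutant over control (horizontal axis) of each tested gene of the 8 lists (rows) at 8 days (left) and 3 months (right); points are spread vertically for sight only. Filled orange points have an adjusted p under 0.05 (edgeR) and are named, black bars are list medians, and no gene is filled at 8 days.

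Some markers of other cells differed with the mutant label at 3 months, and their part in the values above was not tested. The sums of 8 of the 12 lists overlapped between mutants and controls at 3 months, and those of 11 at 8 days. Over all genes at 3 months, 9.28% passed by edgeR, 29.4% were under 0.05 unadjusted and DESeq2 called 16.3%. The 8-day shares were 0.0915%, 8.8% and 1.06%. At 3 months T-cell markers summed to 64.4 to 78.5 CPM in controls and 25.5 to 54.2 in mutants (3 of 5 genes passed, all lower; 4 unadjusted, 3 by DESeq2), and B- and plasma-cell markers to 2085 to 2954 and 1108 to 1616 CPM (2 of 5, both lower; 3 unadjusted, 2 by DESeq2). Goblet cell markers summed to 12891 to 15495 and 17266 to 18539 CPM (1 of 6, Muc2, higher; 2 unadjusted, 2 by DESeq2). Fibroblast markers summed to 1042 to 1175 and 1136 to 1849 CPM (1 of 6, Pdgfra, higher; 3 unadjusted, 2 by DESeq2) and macrophage markers to 145 to 179 and 183 to 252 CPM (1 of 4, Csf1r, higher; 1 unadjusted, 1 by DESeq2). All 8 markers of cycling cells had a negative log2 fold change (median -0.29), of which 1, Top2a, passed by edgeR, 3 by DESeq2 and 6 unadjusted, with sums of 989 to 1189.9 and 854 to 1013 CPM. No gene of the epithelial, Paneth, villus enterocyte, tuft, smooth muscle or glial and neuronal lists passed at 3 months by edgeR; unadjusted, 3 of 7, 1 of 6, 3 of 6, 0 of 4, 2 of 6 and 0 of 5 were under 0.05, and DESeq2 called 3 epithelial and 2 enterocyte genes. Log2 fold changes were positive for 6 of 6 smooth muscle (median 0.37), 5 of 6 enterocyte (0.37), 4 of 4 tuft (0.72) and 5 of 5 glial and neuronal genes (0.19), and negative for 6 of 7 epithelial (-0.13) and 4 of 6 Paneth genes (-0.29). In the goblet, fibroblast and macrophage lists, 4 of 6 (median 0.17), 5 of 6 (0.38) and 3 of 4 (0.10) were positive. All 5 T-cell (-1.24) and all 5 B- and plasma-cell genes (-1.16) were negative. At 8 days, where edgeR called no gene of the 12 lists, log2 fold changes were positive for 6 of 6 smooth muscle (median 0.35; 2 unadjusted), 5 of 5 B- and plasma-cell (2.15; 4 unadjusted), 4 of 5 T-cell (0.22; 2 unadjusted) and 3 of 4 macrophage genes (0.13; 1 unadjusted). They were negative for 8 of 8 cycling (-0.16; 0 unadjusted), 7 of 7 epithelial (-0.11; 2 unadjusted) and 5 of 5 glial and neuronal genes (-0.18; 0 unadjusted), the last being positive at 3 months. The goblet (3 of 6 positive), enterocyte (3 of 6), Paneth (2 of 6), fibroblast (2 of 6) and tuft lists (3 of 4) had medians from -0.11 to 0.036. Epithelial markers summed to 10858 to 12776 and 9715 to 11112 CPM at 3 months and to 12893 to 14087 and 11568 to 12471 CPM at 8 days, where the groups did not overlap although no single gene passed (2 of 7 unadjusted, 1 by DESeq2). Glial and neuronal markers summed to 10.5 to 15.4 and 11.7 to 18.6 CPM at 3 months, Paneth markers to 7616 to 11271 and 6315 to 9968, tuft markers to 15.6 to 38.7 and 13.7 to 58.8, smooth muscle markers to 1529 to 1839 and 1637 to 2975, and enterocyte markers to 7207 to 10111 and 7205 to 11422. Every marker gene of the 12 lists had counts in every library.

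**Figure D4:**
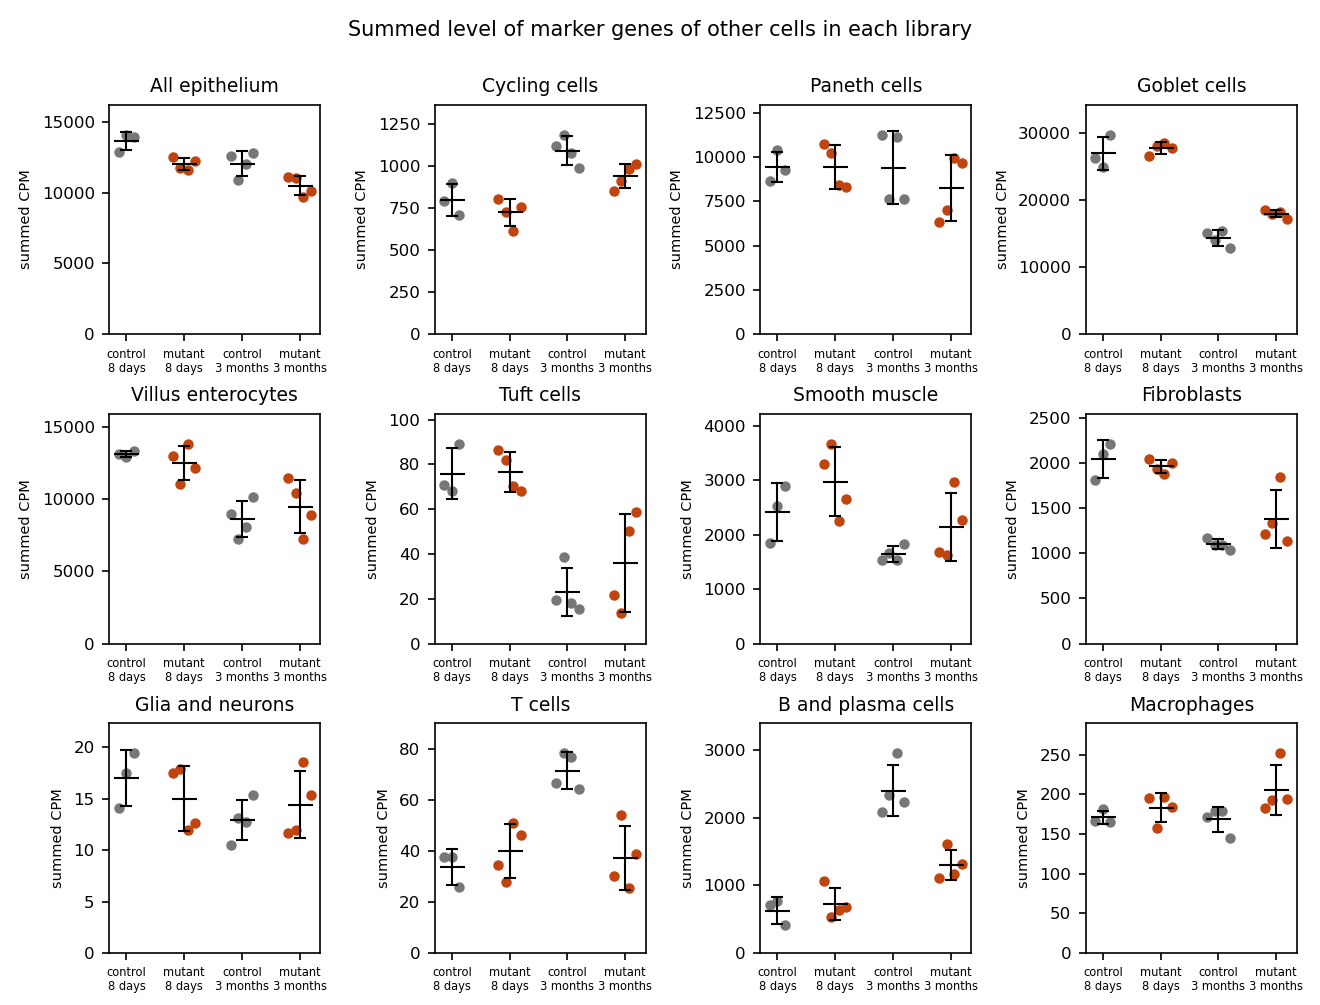
Summed CPM (vertical axis, linear, from 0) of the marker genes of 12 groups of other cells in each of the 15 libraries, as grey points for controls and orange points for mutants, with bars for mean and SD (n = 3, 4, 4 and 4). At 3 months T-cell and B- and plasma-cell sums are lower in every mutant than in any control, and goblet cell and macrophage sums are higher.

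The genes whose variation between replicates was most like that of Lgr5 and Axin2 were taken from the 13456 genes ranked, as the 5 with the highest Pearson correlation over the 15 libraries after each group's mean had been subtracted from log2 CPM. These are descriptions: the genes share libraries and depth, and they were picked as the highest of many. For Lgr5 they were Id4 (0.87), Bora (0.85), Ptger2 (0.85), Impact (0.84) and Mpv17l (0.84). For Axin2 they were Rgs3 (0.89), Cc2d1a (0.88), Usp43 (0.88), Osbpl7 (0.85) and Mx2 (0.85). No gene is in both lists, and none is another member.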

How the data were processed

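Ribosomal RNA was depleted from total RNA of each ileum before sequencing, per the labels' protocols, although the molecule label names polyadenylated RNA. The authors deposited raw counts of reads per Ensembl gene, 1 column per library and 1 table per cohort. The submitters' processing notes list bcl2fastq 2.17.1.14, TopHat2 2.0.10, Bowtie2 2.1.0, Bowtie 1.0.0, HTSeq 0.6.1 and the build mm9, without roles. The annotation release and the strand setting are not given in the sources used here. Symbols, exon lengths and overlaps came from GENCODE M21 on another build, which named 32897 of 37620 identifiers (87.4%), so no coordinates are printed. Identifiers without a symbol held 0.675% of counts.

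Columns were matched to samples by title, replicates were numbered in deposit order, and any pair of replicates differed by more than sampling noise (lowest chi-square per degree of freedom 12.1). Genes were kept by filterByExpr (minimum count 10) and scaled by TMM, and a quasi-likelihood model was fitted to each cohort separately in edgeR 4.0.16 under R 4.3.3 (legacy setting), with Benjamini-Hochberg adjustment over all of them and a threshold of 0.05. The interaction and the comparison of controls used 1 fit of all 15 libraries. Fold changes are mutant over control, errors of means are SD, errors of fold changes SE, and tests are two-sided. The scripts were checked on simulated data with changes larger than that of any member between mutants and controls. Recovery of changes as small as the members' was not checked. Libraries of 26078462 to 54468586 counts put 3 counts at 0.0551 to 0.115 CPM (counting error only).

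Named were the 10 members, Rfx6, from each list up to 4 called genes per comparison or the gene with the smallest p, and the 5 genes most like Lgr5 or Axin2. Other list genes (Wnt3, Wnt9b, Lgr4, Ctnnb1, Myc, Ephb2, Ephb3, Tnfrsf19, Hes1 and Atoh1) were named for their role after their values were seen. The members and lists were chosen with earlier results of these data known. Alternatives, changed singly, were DESeq2 1.42.0, RLE scaling, TMM computed after dropping the 20 most counted genes, no filter, 1 joint fit, controls restricted to Rfx6f/f, and omission of single libraries. Figures used matplotlib 3.10.9.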

Additional observations from a re-analysis of the deposited data

Results flagged for a closer look

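Of 30 checks for a library far from the other 3 of its group (10 genes in the 3 groups of 4), 2 stood out, where chance gives about 1 in 20, or 1.5. Rnf43 was 53.5 CPM in mutant replicate 3 at 3 months, against 56.9 to 57.4 CPM in the other 3 mutants, and still above every control of that time. Slc12a2 was 322 CPM in mutant replicate 3 at 8 days, against 422 to 440.2 CPM in the other 3. By edgeR, Wnt4 was the 1 of 101 list genes whose mutant effect differed between the times (6 by DESeq2, among them Wnt4). The difference was 1.27 on the log2 scale (edgeR interaction test, adjusted p 0.0254). This call was kept in 10 of the 15 fits that left out 1 library and lost with Rfx6f/f controls only. Within the 3-month cohort alone, all 4 mutants were above all 4 controls, as for 8.76% of all genes tested.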

How the results depend on the processing

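The number of members that passed was the same under DESeq2 as under edgeR at 8 days and in the interaction (0), and leaving out single libraries gave 0 there too. At 3 months it was 2, was 3 by DESeq2 (with Slc12a2), fell to 0 with Rfx6f/f controls only and ranged from 0 to 2 when 1 library was left out. Between control cohorts it was 5, fell to 3 with Rfx6f/f controls only and ranged from 3 to 5. With Rfx6f/f controls only, 3 values that had not passed changed sign: Lgr5 (-0.044) and Cd44 (0.033) at 3 months, and Olfm4 (-0.026) in the interaction. Others kept their sign but moved by over 1.5 times, here from the value with all controls to that with these: at 3 months Olfm4 (-0.12 to -0.24), Ascl2 (-0.36 to -0.59), Axin2 (-0.21 to -0.35) and Smoc2 (-0.034 to -0.054); in the interaction Ascl2 (-0.10 to -0.30), Axin2 (-0.046 to -0.16) and Cd44 (0.081 to 0.17); and between control cohorts Ascl2 (-0.26 to -0.056), Cd44 (0.13 to 0.051) and Slc12a2 (-0.072 to -0.12). Of the other settings that kept all libraries, those that moved a value this far did so for Axin2 in the interaction (-0.025 to -0.028 by DESeq2, with RLE scaling or with no filter), Cd44 at 3 months (-0.042 in the joint fit) and Smoc2 between control cohorts (0.013 to 0.063). Values near 0 also changed sign over fits that left out 1 library: at 8 days Smoc2 (-0.083 to 0.10), Rnf43 (-0.071 to 0.060) and Slc12a2 (-0.0036 to 0.14); at 3 months Lgr5 (-0.0087 to 0.10), Olfm4 (-0.29 to 0.0093) and Cd44 (-0.15 to 0.031); in the interaction Olfm4 (-0.10 to 0.23), Ascl2 (-0.24 to 0.022), Smoc2 (-0.15 to 0.041), Axin2 (-0.12 to 0.067) and Cd44 (-0.016 to 0.17); and between control cohorts Smoc2 (-0.069 to 0.12) and Slc12a2 (-0.13 to 0.013). Other values that had not passed kept their sign but moved by over 1.5 times: at 8 days Olfm4 (-0.33 to -0.061), Ascl2 (-0.38 to -0.15), Axin2 (-0.29 to -0.10), Sox9 (0.0028 to 0.17) and Cd44 (-0.21 to -0.028); at 3 months Smoc2 (-0.060 to -0.015) and Axin2 (-0.32 to -0.16); in the interaction Slc12a2 (0.16 to 0.32); and between control cohorts Olfm4 (0.12 to 0.39), Ascl2 (-0.36 to -0.10) and Cd44 (0.044 to 0.22). The cause was not tested. Over all genes, calls at 8 days were 16 by edgeR (37.5% higher), 181 by DESeq2 (62.4% higher), 25 in the joint fit, 27 with no filter and 8 to 200 without 1 library, the highest being without mutant replicate 1 (180 of 200, 90.0%, higher), the fit in which Clu and Lef1 passed. At 3 months they were 1586, 2929 by DESeq2, 36 with Rfx6f/f controls only (2 controls) and 391 to 1521 without 1 library. In the interaction they were 141, 1019 by DESeq2, 223 with no filter, 5 with Rfx6f/f controls only and 10 to 749 without 1 library; between control cohorts they were 8093 and 5197 with Rfx6f/f controls only. Ascl2 had the fewest counts of the members, with as few as 90 in a library. No paired analysis was possible because no title number occurs in both the mutant and the control group of a cohort. Some title numbers recur between cohorts, 1 of them with another genotype, and were not used to pair.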
